A study of Mus musculus with 18 samples.

Results

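The Toll-like receptors examined here were 10 genes, *Tlr1*, *Tlr2*, *Tlr3*, *Tlr4*, *Tlr5*, *Tlr6*, *Tlr7*, *Tlr8*, *Tlr9* and *Tlr13*, taken by gene symbol from the 55487 genes counted in each of 18 bulk RNA-seq libraries. They were divided by the place where the receptor binds its ligand into 5 surface receptors (*Tlr1*, *Tlr2*, *Tlr4*, *Tlr5*, *Tlr6*) and 5 endosomal receptors (*Tlr3*, *Tlr7*, *Tlr8*, *Tlr9*, *Tlr13*). All 10 passed the filter on low counts in every comparison.

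The study deleted *Csn8*, which encodes a subunit of the COP9 signalosome, in adipocytes of mice. Subcutaneous white adipose tissue (sWAT) came from animals aged 12 weeks, 4 Ctrl and 4 *Csn8* AKO, and brown adipose tissue (BAT) from animals aged 4 weeks, 5 Ctrl and 5 *Csn8* AKO. All were male and were fasted before the tissue was taken, and each library came from 1 mouse. All mice carried floxed *Csn8* alleles (*Csn8* f/f), and the *Csn8* AKO mice also carried Cre recombinase under the adiponectin promoter, which is active in adipocytes, so that the other cells of the tissue kept the gene. The Ctrl mice, labelled wild type in the records, were *Csn8* f/f littermates without Cre. Because sWAT and BAT came from mice of different ages, depot and age cannot be told apart in any comparison across tissues.

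Toll-like receptors are single-pass membrane proteins that recognize conserved molecules of microbes, and some molecules released by damaged cells, through leucine-rich repeats. The surface receptors bind lipoproteins, lipopolysaccharide and flagellin, whereas the endosomal receptors bind nucleic acids and depend on the chaperone UNC93B1 to reach the endosome and on proteases to become active. Most signal through the adaptor MYD88 and some through TRIF to NF-κB and interferon regulatory factors, and in adipose tissue they are known mainly from macrophages and other immune cells, with TLR4 also present on adipocytes.

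The libraries held between 15835721 and 23109603 counts in sWAT and between 26658593 and 66719937 in BAT. Between 1889 and 5201 counts per sWAT library and between 836 and 2874 per BAT library fell on the 10 receptors. Levels are given as CPM, scaled by TMM factors over all 18 libraries, and levels of different genes are compared only as CPM per kilobase of exon length (RPKM). The targeted gene, listed under its symbol *Cops8*, had 31.8, 35.7, 33.7 and 34.1 CPM in the 4 Ctrl sWAT libraries and 32.3, 26.9, 29.8 and 34.9 CPM in the *Csn8* AKO ones. In BAT it had 38.1, 40.3, 41.5, 38.3 and 46.0 CPM in Ctrl and 28.3, 30.6, 35.4, 32.2 and 37.3 CPM in *Csn8* AKO mice. The sWAT groups overlapped (log2 fold change -0.12 ± 0.11 SE, adjusted p = 0.623) and the BAT groups did not (-0.30 ± 0.09, adjusted p = 0.0211). The BAT call was lost in 3 of 10 fits that left out 1 library (adjusted p up to 0.0579), and over all alternatives its adjusted p ranged from 0.0112 to 0.388. These counts take in exons outside the deleted part and RNA of cells without Cre, so they do not check the deletion.

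Markers of the labelled tissues were present. *Adipoq*, the gene of the adipocyte hormone adiponectin, had 453.2 CPM or more in every library, and *Ucp1*, the uncoupling protein of brown adipocytes, had between 1635 and 5404 CPM in BAT and at most 6.80 CPM in sWAT. Several libraries stood apart before any receptor was considered. Ctrl sWAT library 1 and *Csn8* AKO sWAT library 2 had summed CPM of 309.9 and 711.6 over 6 B cell genes and of 99.8 and 297.8 over 5 lymph node genes, where the other 6 sWAT libraries had between 64.7 and 226.2 and between 8.70 and 30.3. Over 6 T cell genes they had 173.1 and 231.6 CPM, against between 7.6 and 24.1 in the others. The plasmacytoid dendritic cell gene *Siglech* had 11.5 and 15.8 CPM in them, against between 1.7 and 3.3. *Csn8* AKO sWAT library 2 also had the lowest sum of 6 adipocyte genes, 3706 CPM, against 7079 CPM or more in the other sWAT libraries. *Ighm* had the highest mean of the B cell genes, and the only B cell gene at 0 was *Ms4a1* in Ctrl sWAT library 2. Ribosomal RNA genes took 31.8% and 47.8% of the counts of *Csn8* AKO sWAT libraries 3 and 4, against between 1.80% and 19.8% in the other sWAT libraries. In BAT they took 10.1% in Ctrl library 1 and 15.1% in *Csn8* AKO library 2, against between 0.863% and 4.10% in the other libraries. Skeletal muscle genes summed to 2599 CPM in Ctrl sWAT library 3 and 1542 CPM in *Csn8* AKO sWAT library 4, and to 101.2 and 183.8 CPM in *Csn8* AKO BAT libraries 1 and 5, where the other BAT libraries had 2.19 CPM or less.

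Surface and endosomal receptors were both much lower in the BAT of Ctrl mice than in the sWAT of Ctrl mice. All 10 receptors were lower in BAT by edgeR's quasi-likelihood test at an adjusted p under 0.05, a call made for 25.7% of all genes tested, out of 51.5% called in either direction, and for 8 of the 10 no BAT library reached the lowest sWAT library, as was so for 22.1% of all genes, while 0 of 10 were apart with BAT higher, against 23.8% of all genes. The median log2 fold change was -2.37 over the surface and -2.49 over the endosomal receptors, against 0.03 over all genes. *Tlr8*, a receptor for RNA breakdown products, had 7.38, 9.35, 14.0 and 16.2 CPM in sWAT and 0.512, 0.946, 0.851, 1.07 and 0.707 CPM in BAT. The depots were far apart, and its log2 fold change of -3.83 ± 0.28 was the lowest of the 10. *Tlr7*, the receptor for single-stranded RNA, had 10.0, 8.40, 12.9 and 12.7 CPM in sWAT and 1.75, 1.24, 0.951, 1.70 and 1.25 CPM in BAT (-3.00 ± 0.21, adjusted p = 7.70e-10). *Tlr4*, the lipopolysaccharide receptor, had 33.2, 28.2, 45.8 and 46.2 CPM in sWAT and 7.71, 6.40, 5.81, 6.02 and 6.97 CPM in BAT (-2.54 ± 0.21, adjusted p = 5.69e-09). For both genes every BAT library lay below every sWAT library.

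*Tlr5*, the flagellin receptor, and *Tlr3*, the receptor for double-stranded RNA, differed least between the depots. *Tlr5* had 14.3, 19.4, 23.2 and 27.5 CPM in Ctrl sWAT and 11.8, 11.1, 6.29, 7.37 and 9.71 CPM in Ctrl BAT (-1.19 ± 0.24, adjusted p = 0.000293). *Tlr3* had 9.97, 7.55, 11.8 and 10.0 CPM in sWAT and 9.70, 7.68, 5.87, 4.82 and 6.29 CPM in BAT (-0.52 ± 0.21, adjusted p = 0.0447). The *Tlr5* libraries did not overlap, whereas the upper BAT libraries of *Tlr3* lay among those of sWAT, and the *Tlr3* call was lost without any 1 of 10 libraries (adjusted p up to 0.146). The other 5 receptors, *Tlr1*, *Tlr2*, *Tlr6*, *Tlr9* and *Tlr13*, had log2 fold changes between -2.73 and -2.18, of which only *Tlr6* overlapped. Those of *Tlr1* and *Tlr6* moved with single libraries, to -1.84 and -1.88 without Ctrl sWAT library 1, and that of *Tlr6* to -3.35 without Ctrl BAT library 2. Without both sWAT libraries rich in B cell genes, an alternative chosen after seeing the data, all 10 remained called lower.

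The order of levels differed with the depot. In Ctrl sWAT the mean RPKM was 6.90 ± 1.63 (SD, n = 4) for *Tlr4*, followed by *Tlr5* (4.41 ± 1.17), *Tlr8* (3.27 ± 1.13), *Tlr9* (2.86 ± 1.59), *Tlr7* (2.69 ± 0.529), *Tlr2* (2.10 ± 0.184), *Tlr3* (1.89 ± 0.334), *Tlr1* (1.10 ± 1.05), *Tlr6* (0.990 ± 0.654) and *Tlr13* (0.813 ± 0.122). Every pair of neighbours in that order overlapped. In Ctrl BAT the order by mean RPKM was *Tlr5* (1.93 ± 0.495, n = 5), *Tlr3* (1.32 ± 0.362), *Tlr4* (1.18 ± 0.139), *Tlr9* (0.510 ± 0.0960), *Tlr2* (0.424 ± 0.134), *Tlr7* (0.338 ± 0.0829), *Tlr8* (0.228 ± 0.0600), *Tlr6* (0.190 ± 0.208), *Tlr13* (0.179 ± 0.0314) and *Tlr1* (0.167 ± 0.0716). The only neighbours in that order without overlap were *Tlr4* and *Tlr9*, so that *Tlr5*, *Tlr3* and *Tlr4* formed an upper group. Among the 7 receptors below it neighbours overlapped, but *Tlr9* (0.345 to 0.586 RPKM) lay wholly above *Tlr8* (0.143 to 0.297), *Tlr13* (0.132 to 0.217) and *Tlr1* (0.0598 to 0.261).

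Markers of many cell types differed between the depots. The summed CPM of 8 macrophage genes was 879.3, 958.5, 1167 and 1249 in the 4 Ctrl sWAT libraries and 144.3, 130.1, 117.2, 159.8 and 120.0 in the 5 Ctrl BAT libraries. All 8 were called lower in BAT (median log2 fold change -2.90), *Lyz2*, the gene of lysozyme in myeloid cells, had the highest mean over all libraries, and none was at 0 in any library. Also lower in BAT were 6 of 6 T cell genes (median -4.58), 5 of 6 B cell genes (-4.14), 4 of 5 mast cell genes (-3.95, with 1 higher), 5 of 5 progenitor and fibroblast genes (-3.12), 5 of 5 skeletal muscle genes (-9.21), 3 of 4 monocyte genes (-2.03), 4 of 6 dendritic cell genes (-1.93, with 1 higher), 3 of 4 neutrophil genes tested (-1.995), 3 of 5 lymph node genes (-2.75), 3 of 5 plasmacytoid dendritic cell genes tested (-0.79, with 1 higher) and 3 of 6 adipocyte genes (-0.50). All 5 endothelial genes (1.16) and all 6 thermogenic genes (5.92) were higher in BAT. These counts are to be read against 25.7% of all genes called lower and 25.9% called higher in BAT. The part of any of these lists in the receptor difference was not tested. In bulk tissue, fewer cells of a type and less RNA per cell cannot be told apart.

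**Figure D1:**
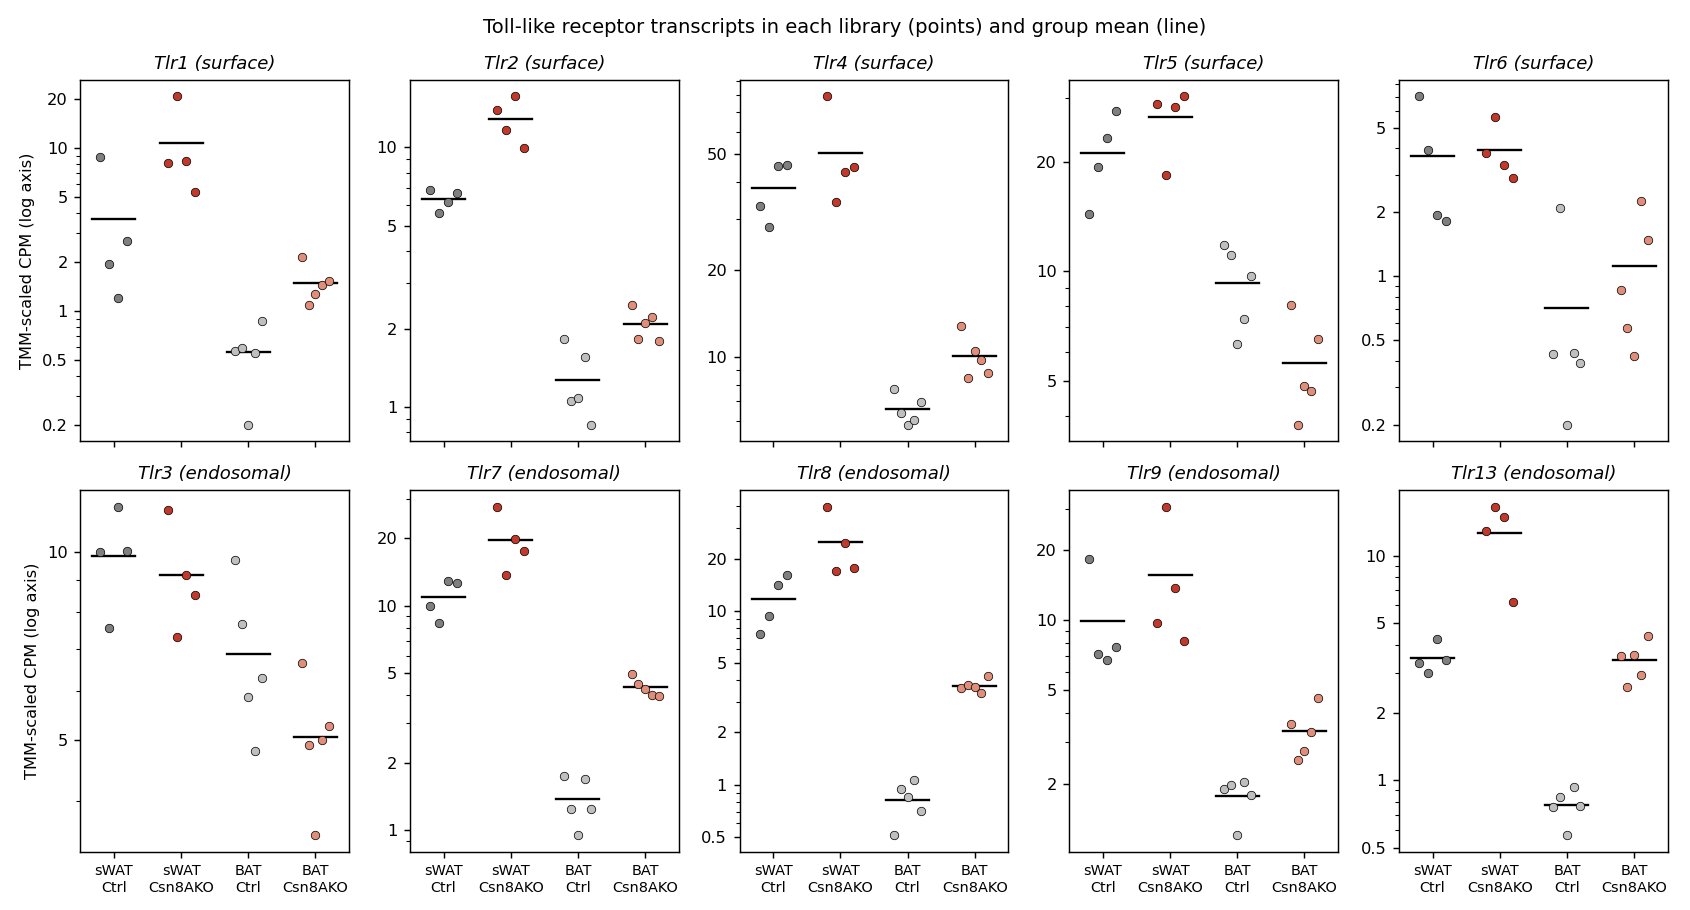
CPM of each receptor (log axis, scaled by TMM factors over 18 libraries) in sWAT and BAT of Ctrl and *Csn8* AKO mice, where each point is 1 library from 1 mouse and the line is the group mean. *Tlr13* lies at 3.00 to 4.24 CPM in Ctrl sWAT and at 6.22 to 16.5 CPM in *Csn8* AKO sWAT, and *Tlr8* lies at 0.512 to 1.07 CPM in Ctrl BAT and at 3.36 to 4.22 CPM in *Csn8* AKO BAT.

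Within sWAT, 1 surface and 1 endosomal receptor rose in *Csn8* AKO mice. *Tlr2* and *Tlr13* were the 2 of 10 called higher by edgeR's quasi-likelihood test, where 2.30% of all genes were, and 0 of 10 were called lower, where 3.00% of all genes were. Of all genes 5.31% were called in either direction. The count called higher was 4 with DESeq2 and with limma voom and 1 with scaling by library size alone. The count of 0 lower held with all of these, and at an unadjusted p under 0.05 as well, where 4 receptors lay, all of them higher. At that unadjusted p lay 3838 of all 18843 genes tested, in either direction. The groups were apart, *Csn8* AKO above Ctrl, for 4 of 10 receptors and for 5.64% of all genes, and below it for 0 of 10 and for 7.96% of all genes. The median log2 fold change was 0.41 over the surface and 0.84 over the endosomal receptors, against 0.03 over all genes.

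Among the surface receptors, *Tlr2*, which pairs with TLR1 or TLR6 to bind lipoproteins, had 6.83, 5.60, 6.18 and 6.68 CPM in Ctrl sWAT and 13.9, 11.7, 15.7 and 9.98 CPM in *Csn8* AKO sWAT. Every *Csn8* AKO library lay above every Ctrl library, with a log2 fold change of 1.03 ± 0.19 and an adjusted p of 0.0138. The *Tlr2* call was lost without Ctrl library 2 (log2 fold change 0.95, adjusted p = 0.0507), Ctrl library 3 (1.00, 0.0525) or *Csn8* AKO library 3 (0.91, 0.0543), and without both *Csn8* AKO libraries richest in ribosomal RNA (1.02, 0.0521), while its adjusted p ranged from 1.51e-05 to 0.324 over all alternatives. *Tlr1*, its partner for triacylated lipopeptides, had 8.87, 1.95, 1.20 and 2.68 CPM in Ctrl and 8.17, 20.9, 8.31 and 5.42 CPM in *Csn8* AKO sWAT (1.54 ± 0.69, adjusted p = 0.259). The groups overlapped only through Ctrl library 1, which was rich in B cell and T cell genes. Without that library the log2 fold change of *Tlr1* was 2.50 with an adjusted p of 0.0344, without *Csn8* AKO library 2, the other library rich in B cell genes, it was 0.95 with an adjusted p of 0.461, and without both libraries rich in B cell genes it was 1.91 with an adjusted p of 0.00600, within a range of 0.00600 to 0.824 over the alternatives.

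The other surface receptors did not pass the test in sWAT. *Tlr4* had 33.2, 28.2, 45.8 and 46.2 CPM in Ctrl and 79.6, 34.4, 43.6 and 45.1 CPM in *Csn8* AKO sWAT (0.41 ± 0.26, adjusted p = 0.427). Its groups overlapped apart from *Csn8* AKO library 1, the highest of all. *Tlr5* lay between 14.3 and 27.5 CPM in Ctrl and between 18.4 and 30.3 CPM in *Csn8* AKO sWAT (0.33 ± 0.21, adjusted p = 0.425). *Tlr6*, the partner of TLR2 for diacylated lipopeptides, lay between 1.82 and 7.04 CPM and between 2.89 and 5.64 CPM (0.10 ± 0.45, adjusted p = 0.934). The *Tlr6* groups overlapped almost wholly, and the sign of its fold change turned with the library left out.

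Among the endosomal receptors, *Tlr13*, which binds bacterial 23S ribosomal RNA, had 3.31, 3.00, 4.24 and 3.44 CPM in Ctrl sWAT and 12.9, 16.5, 14.8 and 6.22 CPM in *Csn8* AKO sWAT. All 4 *Csn8* AKO libraries lay above all 4 Ctrl libraries, the nearest being library 4, which was the richest in ribosomal RNA. The log2 fold change of 1.87 ± 0.30 (adjusted p = 0.00803) was the highest of the 10 in sWAT, and the call held in all 8 fits that left out 1 library (adjusted p up to 0.0339) and in the other alternatives tried.

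*Tlr7* had 10.0, 8.40, 12.9 and 12.7 CPM in Ctrl sWAT and 27.6, 13.8, 19.8 and 17.5 CPM in *Csn8* AKO sWAT (0.84 ± 0.22, adjusted p = 0.0578). *Tlr8*, its neighbour on the X chromosome, had 7.38, 9.35, 14.0 and 16.2 CPM and 39.8, 17.0, 24.6 and 17.6 CPM (1.08 ± 0.32, adjusted p = 0.0844). Neither gene passed the threshold although the groups of each were apart, and in both *Csn8* AKO library 1 was the highest. *Tlr7* passed it without *Csn8* AKO library 2 (log2 fold change 0.97, adjusted p = 0.0194) and without both libraries rich in B cell genes (0.0255), and both genes passed it with DESeq2 (0.00996 for *Tlr7* and 0.0145 for *Tlr8*). Over all alternatives the adjusted p ranged from 0.00996 to 0.510 for *Tlr7* and from 0.0134 to 0.245 for *Tlr8*. *Tlr9*, the receptor for unmethylated CpG DNA, had 18.2, 7.15, 6.75 and 7.64 CPM in Ctrl and 9.71, 30.6, 13.7 and 8.17 CPM in *Csn8* AKO sWAT (0.66 ± 0.51, adjusted p = 0.536). Its highest libraries were the B cell gene-rich ones of each genotype, which were also rich in T cell genes. The log2 fold change of *Tlr9* was 1.16 without Ctrl library 1, 0.06 without *Csn8* AKO library 2 and, without both, 0.56 with an adjusted p of 0.151, the lowest in a range up to 0.980. *Tlr3* lay between 7.55 and 11.8 CPM in Ctrl and between 7.31 and 11.7 CPM in *Csn8* AKO sWAT (-0.10 ± 0.20, adjusted p = 0.839), with full overlap.

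In BAT more receptors differed between the genotypes. *Tlr1*, *Tlr2*, *Tlr4*, *Tlr7*, *Tlr8*, *Tlr9* and *Tlr13*, 7 of 10, were called higher in *Csn8* AKO mice by edgeR's quasi-likelihood test, where 16.0% of all genes were, and *Tlr5*, 1 of 10, was called lower, where 15.8% of all genes were. Together these were 8 of 10 receptors and 31.9% of all genes. The groups were apart with *Csn8* AKO higher for 6 of 10 and for 9.50% of all genes, and lower for 0 of 10 and for 11.6%. Of the endosomal receptors 4 of 5 rose, with a median log2 fold change of 1.69 over the 5, and of the surface receptors 3 of 5, with a median of 0.71, against 0.01 over all genes.

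The endosomal receptors *Tlr8*, *Tlr13* and *Tlr7* changed most. *Tlr8* had 0.512, 0.946, 0.851, 1.07 and 0.707 CPM in Ctrl BAT and 3.61, 3.74, 3.67, 3.36 and 4.22 CPM in *Csn8* AKO BAT (2.19 ± 0.20, adjusted p = 3.19e-06). *Tlr13* had 0.755, 0.841, 0.567, 0.933 and 0.762 CPM and 3.58, 2.60, 3.60, 2.94 and 4.39 CPM (2.17 ± 0.20, adjusted p = 3.91e-06). *Tlr7* had 1.75, 1.24, 0.951, 1.70 and 1.25 CPM and 4.99, 4.47, 4.27, 3.99 and 3.99 CPM (1.69 ± 0.18, adjusted p = 1.48e-05). In all 3 genes the 5 *Csn8* AKO libraries lay above all 5 Ctrl libraries. *Tlr9* had 1.89, 1.96, 1.20, 2.04 and 1.79 CPM in Ctrl and 3.58, 2.52, 2.75, 3.32 and 4.63 CPM in *Csn8* AKO BAT (0.95 ± 0.20, adjusted p = 0.00271). Its groups were apart too, *Csn8* AKO library 5 had both the highest *Tlr9* and the highest sum of B cell genes in BAT (22.8 CPM), and its call was lost only with all 4 groups in 1 fit (adjusted p = 0.0598, the highest in a range from 3.51e-05). *Tlr3* was the exception, with 9.70, 7.68, 5.87, 4.82 and 6.29 CPM in Ctrl and 6.63, 4.92, 3.53, 5.00 and 5.27 CPM in *Csn8* AKO BAT (-0.41 ± 0.20, adjusted p = 0.139). Its groups overlapped and it did not pass the test.

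Among the surface receptors, *Tlr1* had 0.566, 0.596, 0.200, 0.552 and 0.874 CPM in Ctrl BAT and 2.15, 1.10, 1.27, 1.44 and 1.52 CPM in *Csn8* AKO BAT (1.47 ± 0.32, adjusted p = 0.00297). *Tlr4* had 7.71, 6.40, 5.81, 6.02 and 6.97 CPM and 12.8, 8.45, 10.4, 9.73 and 8.75 CPM (0.64 ± 0.14, adjusted p = 0.00294). Both were higher in every *Csn8* AKO library than in any Ctrl library, although *Tlr1* rested on only 12 to 47 counts per Ctrl library. *Tlr2* had 1.83, 1.05, 1.08, 1.56 and 0.855 CPM in Ctrl and 2.48, 1.83, 2.12, 2.23 and 1.79 CPM in *Csn8* AKO BAT (0.75 ± 0.22, adjusted p = 0.0175). Its groups overlapped at Ctrl library 1, and it was called in all 10 fits that left out 1 library.

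*Tlr5* went the other way. It had 11.8, 11.1, 6.29, 7.37 and 9.71 CPM in Ctrl BAT and 8.09, 3.78, 4.84, 4.70 and 6.52 CPM in *Csn8* AKO BAT (-0.69 ± 0.22, adjusted p = 0.0292). *Csn8* AKO libraries 1 and 5 lay within the Ctrl range and the other 3 below it. The call was lost without Ctrl library 1, 2 or 5 or *Csn8* AKO library 2, 3 or 4, with adjusted p between 0.0522 and 0.0784, and with scaling by library size alone, where it was 0.131, so that it held in 4 of 10 fits that left out 1 library. *Tlr6* had 0.431, 2.09, 0.200, 0.438 and 0.391 CPM in Ctrl and 0.865, 0.569, 0.424, 2.26 and 1.49 CPM in *Csn8* AKO BAT (0.71 ± 0.65, adjusted p = 0.445). Its groups overlapped, with Ctrl library 2 far above the other Ctrl libraries, and without that library the log2 fold change was 1.69 with an adjusted p of 0.0183 in a range of 0.0183 to 0.812.

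**Figure D2:**
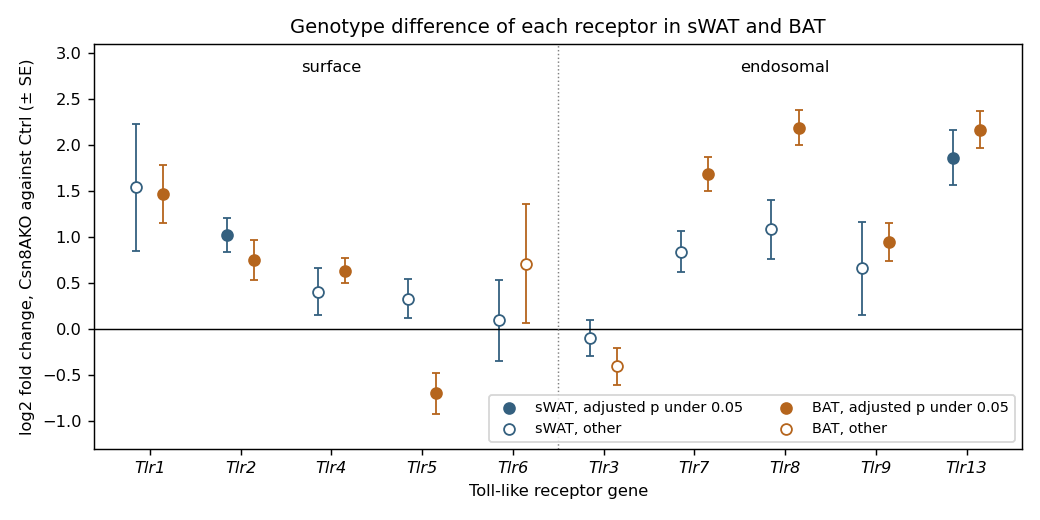
Log2 fold change of each receptor, *Csn8* AKO against Ctrl, in sWAT (4 against 4 libraries) and BAT (5 against 5), with bars of 1 SE. Filled points have an adjusted p under 0.05: *Tlr2* and *Tlr13* in sWAT, and in BAT 7 receptors above 0 and *Tlr5* below it.

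Whether the genotype difference itself differed between the tissues was tested by the interaction. It was called for 0 of 10 receptors by edgeR's quasi-likelihood test, where 2.36% of all genes were called, and for 0 of 10 by DESeq2 and by limma voom. At an unadjusted p under 0.05 there were 3 receptors, and 3439 of all 22509 genes tested. The 3 were *Tlr8* (log2 1.09 ± 0.37 higher in BAT, adjusted p = 0.140), *Tlr7* (0.82 ± 0.29, adjusted p = 0.160) and *Tlr5* (-1.05 ± 0.34, adjusted p = 0.118). For *Tlr8* the adjusted p was 0.0345 without *Csn8* AKO sWAT library 1, which had 39.8 CPM, within a range of 0.0345 to 0.275. The interaction was -0.10 for *Tlr1*, 0.21 for *Tlr4* and 0.28 for *Tlr9*, which were called in BAT and not in sWAT. It was -0.30 for *Tlr2*, 0.59 for *Tlr6*, -0.33 for *Tlr3* and 0.29 for *Tlr13*. The larger number of calls in BAT is therefore not shown to be a difference between the tissues for any of the 10. The interaction shares its libraries with the comparisons within each tissue, and the depot comparison shares the Ctrl libraries, so they are not independent. Side by side, *Tlr8* was -3.83 between Ctrl depots and 2.19 between genotypes in BAT, *Tlr13* was -2.18 and 2.17, *Tlr7* was -3.00 and 1.69, *Tlr3* was -0.52 and -0.41, and *Tlr5* was -1.19 and -0.69. In *Csn8* AKO BAT *Tlr8* thus still lay at 3.36 to 4.22 CPM, below the 7.38 CPM of the lowest Ctrl sWAT library, whereas *Tlr13* at 2.60 to 4.39 CPM overlapped the 3.00 to 4.24 CPM of Ctrl sWAT.

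Weighing the receptors by length, the endosomal share of the summed RPKM of the 10 receptors was 44.1%, 41.3%, 43.3% and 41.6% in Ctrl sWAT and 39.9%, 38.1%, 42.3%, 41.6% and 37.9% in Ctrl BAT. The depots therefore differed in the sum and hardly in the share, with 42.6% ± 1.34 (SD, n = 4) in sWAT and 40.0% ± 1.99 (n = 5) in BAT, and their ranges overlapped. In *Csn8* AKO mice the share was 47.6%, 50.5%, 48.3% and 42.1% in sWAT and 48.5%, 56.5%, 51.8%, 50.1% and 55.7% in BAT. All 5 *Csn8* AKO BAT libraries lay above all Ctrl BAT libraries, whereas in sWAT *Csn8* AKO library 4, the one richest in ribosomal RNA, lay within the Ctrl range. The mean in *Csn8* AKO sWAT was 47.1% ± 3.59, or 46.0% without library 2, which was rich in B cell genes.

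The sums behind the shares are given for each class, and a difference between the classes was not tested. The surface sum was 3.90 ± 0.794 RPKM in Ctrl and 4.41 ± 0.833 RPKM in *Csn8* AKO BAT, while the endosomal sum was 2.57 ± 0.414 and 4.84 ± 0.556 RPKM. The surface sums of the 2 genotypes overlapped in BAT, and the endosomal sums did not. The surface sum takes in *Tlr5*, with a mean of 1.93 RPKM in Ctrl and 1.17 RPKM in *Csn8* AKO BAT. Its lower call held in 4 of 10 fits that left out 1 library, while 3 of 5 surface receptors were called higher. In sWAT both sums were apart, at 15.5 ± 2.08 and 23.2 ± 3.64 RPKM for the surface and 11.5 ± 1.77 and 20.9 ± 4.68 RPKM for the endosomal receptors. *Tlr5* and *Tlr3* together made up 49.8% ± 4.75 of the receptor RPKM in Ctrl BAT, 22.9% ± 2.63 in *Csn8* AKO BAT, 23.4% ± 4.01 in Ctrl sWAT and 17.0% ± 4.60 in *Csn8* AKO sWAT. This pair was chosen after its values were seen, so its share is a description only. The order of mean RPKM in *Csn8* AKO BAT accordingly began with *Tlr4* (1.80 ± 0.310), *Tlr5* (1.17 ± 0.358), *Tlr7* (1.06 ± 0.102), *Tlr8* (1.04 ± 0.0874), *Tlr3* (0.974 ± 0.212) and *Tlr9* (0.966 ± 0.238), followed by *Tlr13* (0.795 ± 0.160), *Tlr2* (0.693 ± 0.0949), *Tlr1* (0.447 ± 0.120) and *Tlr6* (0.301 ± 0.203), with every pair of neighbours overlapping. In *Csn8* AKO sWAT all neighbours overlapped too, in the order *Tlr4* (9.12 ± 3.57), *Tlr8* (6.90 ± 2.96), *Tlr5* (5.53 ± 1.14), *Tlr7* (4.82 ± 1.44), *Tlr9* (4.47 ± 2.96), *Tlr2* (4.26 ± 0.838), *Tlr1* (3.20 ± 2.07), *Tlr13* (2.93 ± 1.05), *Tlr3* (1.76 ± 0.352) and *Tlr6* (1.05 ± 0.323).

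**Figure D3:**
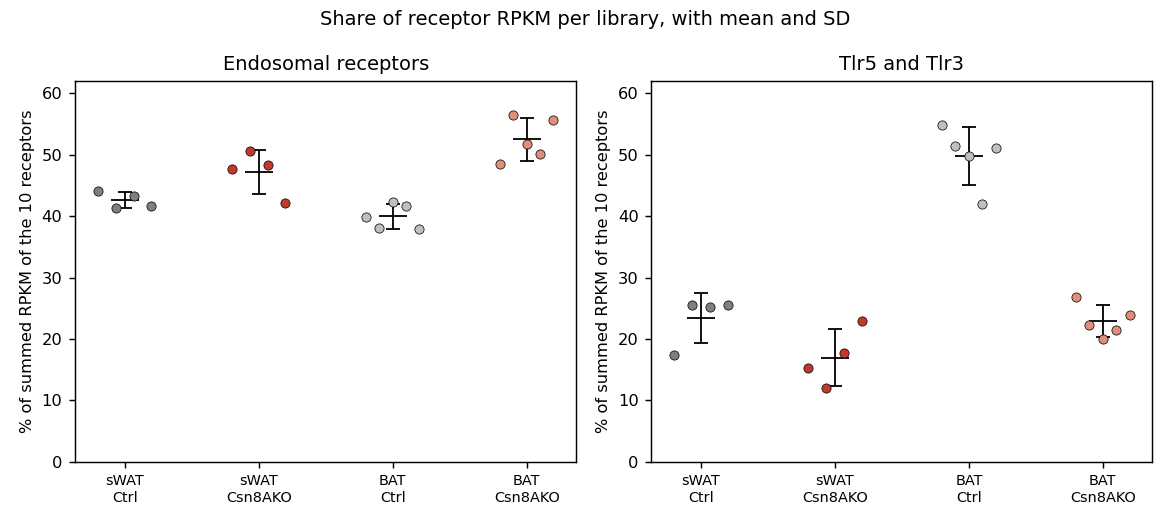
Share (%) of the summed RPKM of the 10 receptors held by the 5 endosomal receptors (left) and by *Tlr5* with *Tlr3* (right), where each point is 1 library and bars give mean and SD. The pair on the right was chosen after its values were seen. The endosomal share lies at 37.9% to 42.3% in Ctrl BAT and at 48.5% to 56.5% in *Csn8* AKO BAT, and the share of *Tlr5* with *Tlr3* averages 49.8% in Ctrl BAT and 22.9% in *Csn8* AKO BAT.

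Marker genes of immune cells moved with the genotype as well. The summed CPM of the 8 macrophage genes was 2590, 1417, 2349 and 1705 in *Csn8* AKO sWAT and 369.9, 336.4, 402.5, 356.1 and 463.0 in *Csn8* AKO BAT, in each tissue above every Ctrl library. In sWAT that separation rested on *Lyz2*, which had 628.1 of 1417 CPM in *Csn8* AKO library 2 and 359.6 of 1249 CPM in Ctrl library 4. Of the macrophage genes 5 of 8 rose in sWAT, where 2.30% of all genes did, and 7 of 8 in BAT, where 16.0% did, with median log2 fold changes of 0.84 and 1.16. The next genes were named after their values were seen. *Adgre1*, which encodes the macrophage surface protein F4/80, rose by 1.31 ± 0.14 in sWAT and 1.63 ± 0.16 in BAT, and the lysosomal protein gene *Cd68* by 1.33 ± 0.24 and 2.53 ± 0.12. Monocyte genes summed to between 33.6 and 58.6 CPM in Ctrl and between 62.3 and 156.3 CPM in *Csn8* AKO sWAT, and to between 7.42 and 9.41 CPM and between 12.2 and 15.6 CPM in BAT, with *Ccr2* of the highest mean over all libraries, *Chil3* at 0 in 1 Ctrl BAT library, and 1 of 4 genes called higher in sWAT and 2 of 3 tested in BAT. Of 6 dendritic cell genes 1 rose in sWAT and 4 in BAT, and *Zbtb46* had the highest mean, with 38.98 of 46.58 CPM in Ctrl BAT library 1 and 20.1 of 67.07 CPM in *Csn8* AKO sWAT library 1. Their part in the receptor differences was not tested.

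The other marker lists are given as counts, with their medians in sWAT. The counts are to be read against 2.30% of all genes called higher and 3.00% lower in sWAT, and 16.0% and 15.8% in BAT. Of 6 plasmacytoid dendritic cell genes 0 of 5 tested passed in sWAT and 1 of 4 rose in BAT, and their sum was led by *Tcf4*, which is not confined to these cells. Of 6 B cell genes 0 passed in sWAT, and 1 was lower in BAT, while of 6 T cell genes 0 passed in sWAT and 3 rose in BAT. Neutrophil genes rested on few counts, with *Csf3r* of the highest mean, *Ly6g* at 0 in most libraries and 1 gene called higher of 3 tested in sWAT and of 2 in BAT. Their sum was between 5.60 and 7.17 CPM in Ctrl and between 12.0 and 19.5 CPM in *Csn8* AKO sWAT. In BAT it was between 1.10 and 2.04 CPM and between 2.56 and 4.36 CPM. Of 5 mast cell genes 0 passed in sWAT and 4 rose in BAT, and of 5 progenitor and fibroblast genes 0 passed in sWAT and 5 rose in BAT. Of 6 adipocyte genes 2 were lower in sWAT and 1 in BAT, of the thermogenic genes 2 of 5 tested were lower in sWAT and 1 of 6 was higher and 1 lower in BAT, and of 5 endothelial genes 0 passed in sWAT and 2 rose in BAT. No lymph node gene was called in either tissue, and 2 of 3 muscle genes tested were higher in BAT. The median log2 fold change in sWAT was 1.31 for mast cell, 1.26 for B cell, 1.23 for lymph node and 1.18 for neutrophil genes. It was 0.77 for progenitor and fibroblast, 0.56 for T cell and -0.07 for plasmacytoid dendritic cell genes. For endothelial, muscle, adipocyte and thermogenic genes it was -0.32, -0.74, -0.81 and -0.82. The part of these lists in the receptor differences was not tested.

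Of the coreceptors and accessory proteins of the surface receptors, 1 of 6 rose in sWAT and 3 of 6 in BAT, against 2.30% and 16.0% of all genes. *Ly86*, the partner of the TLR4-like protein CD180, had between 8.60 and 11.7 CPM in Ctrl and between 16.0 and 27.2 CPM in *Csn8* AKO sWAT (1.18 ± 0.19, adjusted p = 0.00866), and that call was lost with scaling by library size alone. In BAT *Cd180* had between 0.500 and 1.21 CPM in Ctrl and between 2.11 and 4.24 CPM in *Csn8* AKO mice (1.91 ± 0.26), and *Lbp*, the lipopolysaccharide-binding protein, between 1.61 and 2.91 CPM and between 4.39 and 7.50 CPM (1.57 ± 0.19). The groups of all 3 were apart. *Cd14* and *Ly96*, which present lipopolysaccharide to TLR4, were not called in either tissue (*Cd14* -0.24 in sWAT and -0.26 in BAT, *Ly96* 0.84 and -0.17), and were named here after their values were seen. In Ctrl mice 5 of 6 coreceptors were lower in BAT than in sWAT, against 25.7% of all genes, *Lbp* by -5.43 ± 0.25 and *Ly86* by -3.07 ± 0.19. The interaction of *Cd180* was 0.65 and was not called, whereas *Lbp* was called in it (1.28 ± 0.31, adjusted p = 0.0315), a call that held in 8 of 18 fits that left out 1 library (adjusted p up to 0.0640).

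The genes that carry endosomal receptors and process them or their ligands gave 5 higher and 0 lower of 15 tested in sWAT, against 2.30% and 3.00% of all genes, and 8 higher and 1 lower of 15 in BAT, against 16.0% and 15.8%. *Ctss*, the gene of cathepsin S, rose most clearly, from between 41.2 and 67.8 CPM to between 120.4 and 194.8 CPM in sWAT (1.61 ± 0.20, adjusted p = 0.00285) and from between 4.20 and 5.85 CPM to between 36.5 and 56.1 CPM in BAT (3.21 ± 0.14, adjusted p = 6.90e-09). Its genotype difference was larger in BAT by the interaction (1.58 ± 0.23, adjusted p = 0.000703). *Lgmn*, the gene of the asparagine endopeptidase legumain, rose in sWAT (1.15 ± 0.17, a call lost with scaling by library size alone) and in BAT (0.72 ± 0.07), and *Cnpy3*, a chaperone of several receptors, was lower in BAT (-0.21 ± 0.07, adjusted p = 0.0347), a call that held in 2 of 10 fits that left out 1 library. *Unc93b1*, chosen after its values were seen, had between 100.4 and 115.0 CPM in Ctrl and between 143.5 and 198.6 CPM in *Csn8* AKO sWAT (0.67 ± 0.14, adjusted p = 0.0244) and rose by 0.44 ± 0.12 in BAT, where the groups overlapped. In Ctrl mice 13 of 15 were lower in BAT than in sWAT, against 25.7% of all genes, with *Ctss* (-3.38 ± 0.17) and *Pld4*, an exonuclease that degrades ligands of TLR9 (-3.07 ± 0.16), of the smallest adjusted p. The interaction was -0.12 for *Cnpy3* and was not called, and that of *Pld4* (0.95 ± 0.22, adjusted p = 0.0234) was lost without Ctrl sWAT library 4 or *Csn8* AKO BAT library 5 and with scaling by library size alone, as was the *Cnpy3* call in BAT.

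The signaling genes shared by the receptors were mixed. Of 6 adaptors 1 rose in each tissue, where 2.30% of all genes rose in sWAT and 16.0% in BAT, the B cell adaptor gene *Pik3ap1* (1.25 ± 0.28 in sWAT, adjusted p = 0.0350, and 1.99 ± 0.23 in BAT), whose call in sWAT held in 2 of 8 fits that left out 1 library and was lost with scaling by library size alone. That call was also lost without both *Csn8* AKO sWAT libraries richest in ribosomal RNA and with the library number as a block. *Myd88*, also named after its values were seen, lay between 15.9 and 21.6 CPM in Ctrl and between 17.8 and 21.6 CPM in *Csn8* AKO sWAT, and between 20.1 and 25.4 CPM and between 16.4 and 23.0 CPM in BAT, with overlapping groups and no call. Between the Ctrl depots, *Ticam1*, the gene of TRIF, was higher in BAT (0.92 ± 0.11), *Myd88* was higher by 0.36 ± 0.12, a call lost without Ctrl sWAT library 1 or 3 and with scaling by library size alone, and *Pik3ap1* (-2.94 ± 0.27) and *Ticam2* (-2.54 ± 0.45) were lower. Thus *Myd88* and *Ticam1* were not lower in BAT, where all 10 receptors were.

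Of 17 kinases and ligases 0 passed in sWAT, and 4 were higher and 3 lower in BAT, where 16.0% and 15.8% of all genes were. In BAT *Irak1*, the kinase recruited by MYD88, fell from between 103.0 and 121.0 CPM to between 60.4 and 70.3 CPM (-0.75 ± 0.07, adjusted p = 5.25e-06), and *Irak4*, which acts before it, fell by 0.27 on the log2 scale, a call that held in 6 of 10 fits that left out 1 library and was lost with scaling by library size alone. *Ikbke*, an IκB kinase of the interferon branch, rose from between 2.17 and 3.45 CPM to between 4.06 and 9.26 CPM (1.43 ± 0.21, adjusted p = 0.000147), and *Ripk1* rose by 0.31 ± 0.08. The interaction was 0.73 for *Ikbke* and 0.11 for *Ripk1*, neither of them called. Between the Ctrl depots 5 of 17 were higher and 5 lower in BAT, against 25.9% and 25.7% of all genes, with *Irak1* (0.64 ± 0.09) and *Tab1*, a partner of the kinase TAK1 (0.90 ± 0.14), higher unless scaled by library size alone, and *Ikbke* (-3.38 ± 0.41) and *Ripk1* (-0.61 ± 0.10) lower. *Irak4* (-0.71 ± 0.14, adjusted p = 0.00865) and *Irak1* (-0.59 ± 0.12, adjusted p = 0.0101) were also called in the interaction, in all 18 fits that left out 1 library but not with scaling by library size alone, nor, for *Irak1*, without the filter on low counts.

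Of 10 transcription factor genes 1 was higher in sWAT, where 2.30% of all genes were, and 2 were higher and 2 lower in BAT, where 16.0% and 15.8% were. *Irf5*, which acts downstream of MYD88 in myeloid cells, rose in sWAT (0.86 ± 0.16, adjusted p = 0.0143) and in BAT (1.39 ± 0.16), and *Irf8*, a factor of myeloid lineages, rose in BAT (1.27 ± 0.15). The *Irf5* call in sWAT was lost with scaling by library size alone and without Ctrl library 3 or 4 or *Csn8* AKO library 3. It was also lost without both *Csn8* AKO sWAT libraries richest in ribosomal RNA and with the library number as a block. The NF-κB genes *Rel* (-0.52 ± 0.13, adjusted p = 0.00766) and *Relb* (-0.56 ± 0.19, adjusted p = 0.0369) fell in BAT, but both calls were lost with scaling by library size alone and with all 4 groups in 1 fit, and that of *Relb* held in only 4 of 10 fits that left out 1 library. Of 9 negative regulators 0 passed in sWAT, while in BAT *Il1rl1*, which encodes the receptor ST2, was higher (1.43 ± 0.20) and the deubiquitinase gene *Cyld* lower (-0.23 ± 0.07, called in 6 of 10 fits that left out 1 library and not with scaling by library size alone). None of these genes called in BAT alone was called in the interaction, which was 0.44 for *Irf8*, -1.22 for *Rel*, -0.73 for *Relb*, 0.50 for *Il1rl1* and -0.51 for *Cyld*. Between the Ctrl depots 5 of 10 transcription factors and 5 of 9 negative regulators were lower in BAT and 0 higher, against 25.7% and 25.9% of all genes, led by *Irf5* (-2.99 ± 0.15) and *Irf7* (-1.56 ± 0.21), and by *Il1rl1* (-2.97 ± 0.24) and *Irak3* (-1.09 ± 0.20).

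Only part of the genes that receptor signaling is known to induce could be tested between the genotypes. In either direction 5.31% of all genes were called in sWAT and 31.9% in BAT, and the target genes were not called less often. Of 15 target genes 8 could be tested in sWAT, where 0 were higher and 1 lower, against 2.30% and 3.00% of all genes, and 9 in BAT, where 1 was higher and 2 lower, against 16.0% and 15.8%. Their median log2 fold change was 0.45 in sWAT and 0.19 in BAT, against 0.03 and 0.01 over all genes. *Cxcl10*, the interferon-induced chemokine, was the gene called lower in sWAT and was lower in BAT as well. It fell from between 12.7 and 19.9 CPM to between 3.72 and 5.60 CPM in sWAT (-1.58 ± 0.21, adjusted p = 0.00396) and from between 5.02 and 7.06 CPM to between 2.32 and 3.73 CPM in BAT (-1.04 ± 0.17, adjusted p = 0.000297), with no overlap in either tissue. *Cxcl1*, a chemokine for neutrophils, rose in BAT (2.95 ± 0.71, adjusted p = 0.00767) although its groups overlapped and lay at 2.94 CPM or less, and *Nfkbiz* fell by 0.34, a call that held in 3 of 10 fits that left out 1 library and was lost with scaling by library size alone. The interaction was 1.39 for *Cxcl1* and -0.57 for *Nfkbiz*, neither of them called. *Tnf*, named after its values were seen, was not called in sWAT (0.99 ± 0.73) or BAT (0.19 ± 0.36). Between the Ctrl depots 2 of 10 were higher and 6 lower in BAT, with a median of -1.33, against 25.9% and 25.7% of all genes. *Nos2*, the inducible nitric oxide synthase (1.31 ± 0.26), and *Nfkbiz* (0.66 ± 0.22) were the 2 higher, the latter lost without Ctrl sWAT library 3 and with scaling by library size alone. *Cxcl10* (-1.22 ± 0.18) and the prostaglandin synthase gene *Ptgs2* (-4.81 ± 0.87, at 0.150 CPM or less in BAT) were lower. *Il6*, *Il12b*, *Ifnb1*, *Acod1* and *Cxcl2* were under the filter on low counts in both tissues.

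Over the 81 pathway genes outside the 10 receptors, 8 of 72 tested rose and 1 fell in sWAT, against 2.30% and 3.00% of all genes, and 20 of 74 rose and 9 fell in BAT, against 16.0% and 15.8%. The medians of their log2 fold changes were 0.27 and 0.13, against 0.03 and 0.01 over all genes. Between the Ctrl depots 9 of 75 were higher and 43 lower in BAT, with a median of -0.44, where 25.9% of all genes were called higher and 25.7% lower. The remaining members of the family, *Tlr11* and *Tlr12*, were lower in Ctrl BAT than in Ctrl sWAT (-1.83 ± 0.36 and -2.90 ± 0.94), but *Tlr12* reached 4.03 CPM in 1 library, and its log2 fold change was -0.64 with an adjusted p of 0.590 without Ctrl sWAT library 1. *Tlr11* was not called between the genotypes in either tissue, and *Tlr12* was not called in BAT and not tested in sWAT.

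The receptors differed in the genes that followed them most closely over the 18 libraries, measured by Pearson correlation of log2 CPM after centring within each tissue, among 13523 genes. *Tlr7* was followed by the macrophage genes *Ms4a7* (r = 0.975), *Fcgr3* (0.973) and *C1qa* (0.967), and *Tlr8* by *Ccl6* (0.969), *Frmd4b* (0.961) and *Fcgr2b* (0.960). *Tlr13* was followed by *Soat1* (0.974), *Adam8* (0.974) and *Ncf1* (0.973), and *Tlr9* by *Wdfy4* (0.973), *Marcksl1* (0.966) and *Prex1* (0.961). Correlations were thus highest for *Tlr7*, *Tlr8*, *Tlr9* and *Tlr13*. *Tlr1* was followed by *Cd52* (0.953), *Plcg2* (0.936) and *Fbl* (0.930), and *Tlr2* by *Hpgds* (0.926), *Prcp* (0.919) and *Il13ra1* (0.914). *Tlr4* was followed by *Rpl35* (0.919), *Tspan5* (0.877) and the fibroblast gene *Dcn* (0.866), *Tlr5* by *Fras1* (0.901), *Dync2h1* (0.893) and *Slc35b2* (0.857), and *Tlr3* by *Rpa3* (0.842), *Cmc1* (0.837) and *Ap3m2* (0.817). No gene followed *Tlr6* beyond *Lrrc1* (0.727), *Padi2* (0.726) and *Dusp5* (0.720). The libraries share the genotype difference within each tissue, so these values describe a pattern and no more.

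Position and sequence may limit some counts. On GRCm38, *Tlr1* lies at chr5:64924679-64933563 and *Tlr6* at chr5:64952031-64960097, both on the minus strand with 18467 bases between them. Their transcripts share identical stretches, so that 4.83% of the 150-base windows of *Tlr1* also occur in *Tlr6*, and no other of the 45 pairs of receptors shared any window of 50 bases. A read wholly within such a stretch cannot by itself be placed in 1 of the 2 genes, although its mate may place the pair. The number of read pairs affected was not measured, so both counts may be limited. *Tlr7* (chrX:167304929-167330558) and *Tlr8* (chrX:167242696-167264329) are neighbours on the minus strand, 40599 bases apart. *Tlr3* (chr8:45395665-45411080, minus strand) is overlapped by the antisense gene *Gm45542*. Since the use of strand in counting was not stated, the effect of this overlap on the *Tlr3* count is not known.

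Promoters are shown for *Tlr13*, *Tlr9*, *Tlr8* and *Tlr2*, which rose in *Csn8* AKO BAT, and for *Tlr5*, which fell, chosen after their values were seen. *Tlr1* rose as well, and its 2 windows, 1 of them with GAGGAAG, are not printed. RefSeq windows of 300 bases on GRCm38.p6, from 250 before to 50 after a start, matched 8 of the 10 receptors with 10 windows, and *Tlr4* and *Tlr7* had no entry. They were searched on both strands for GAGGAAG, the core of sites of the myeloid factor PU.1, for an NF-κB motif, whose matches are spelled out, and for AANNGAAA, an element of interferon regulatory factors. These occur in 13.6%, 1.20% and 23.9% of all 32841 promoter windows. GAGGAAG was found in 3 of the 10 windows, those of *Tlr13*, *Tlr9* and 1 of *Tlr1*, the NF-κB motif in 2, those of *Tlr2* (GGGAATTCCC) and *Tlr3* (GGGAGTTTCC), and AANNGAAA in 4. Each sequence is given 5′ to 3′ on the strand of the gene, with matches of GAGGAAG and of the NF-κB motif on either strand in capitals. The windows are *Tlr13* chrX:106143025-106143324 (plus), *Tlr9* chr9:106222348-106222647 (plus), *Tlr8* chrX:167264280-167264579 (minus), *Tlr2* chr3:83841559-83841858 (minus) and *Tlr5* chr1:182954538-182954837 (plus).
*Tlr13*: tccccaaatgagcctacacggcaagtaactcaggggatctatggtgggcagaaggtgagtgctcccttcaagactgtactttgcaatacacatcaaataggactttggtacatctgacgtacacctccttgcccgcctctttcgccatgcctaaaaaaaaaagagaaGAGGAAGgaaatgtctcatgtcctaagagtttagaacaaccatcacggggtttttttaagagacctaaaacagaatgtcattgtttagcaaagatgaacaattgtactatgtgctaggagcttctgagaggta
*Tlr9*: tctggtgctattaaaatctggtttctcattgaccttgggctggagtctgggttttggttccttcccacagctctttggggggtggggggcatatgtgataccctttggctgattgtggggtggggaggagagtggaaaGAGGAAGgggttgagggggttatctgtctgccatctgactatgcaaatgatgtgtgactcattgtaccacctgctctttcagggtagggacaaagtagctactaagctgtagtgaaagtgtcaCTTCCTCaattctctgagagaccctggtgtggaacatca
*Tlr8*: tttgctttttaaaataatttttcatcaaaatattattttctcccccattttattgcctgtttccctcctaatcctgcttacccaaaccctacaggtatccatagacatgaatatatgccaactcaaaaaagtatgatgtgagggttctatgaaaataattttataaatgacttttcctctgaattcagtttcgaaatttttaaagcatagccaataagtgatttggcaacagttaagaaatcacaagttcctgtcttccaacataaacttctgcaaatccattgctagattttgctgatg
*Tlr2*: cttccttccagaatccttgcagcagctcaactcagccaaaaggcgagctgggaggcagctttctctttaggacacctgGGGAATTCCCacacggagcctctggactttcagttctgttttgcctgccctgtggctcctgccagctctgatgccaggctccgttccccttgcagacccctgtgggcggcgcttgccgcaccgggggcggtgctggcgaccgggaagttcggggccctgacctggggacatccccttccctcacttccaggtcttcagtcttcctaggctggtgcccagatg
*Tlr5*: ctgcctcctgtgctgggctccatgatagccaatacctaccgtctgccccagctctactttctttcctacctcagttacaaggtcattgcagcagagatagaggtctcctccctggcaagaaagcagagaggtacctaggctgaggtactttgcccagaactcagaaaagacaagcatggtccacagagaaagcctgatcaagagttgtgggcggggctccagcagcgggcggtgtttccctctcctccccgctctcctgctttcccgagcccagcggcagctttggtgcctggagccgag

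*Tlr9* held GAGGAAG on both strands, 112 bases before the start and 12 bases after it, and *Tlr13* held it 83 bases before the start. The window of *Tlr2* held the NF-κB letters as GGGAATTCCC 172 bases before its start, and AANNGAAA at 2 places. The windows of *Tlr8*, which rose, and *Tlr5*, which fell, held none of the 3 motifs. A match is a description of the letters in the window.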

How the data were processed

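RNA was sequenced from 18 bulk libraries, 4 per genotype from sWAT and 5 per genotype from BAT. Per the labels, ribosomal RNA was removed, paired reads of 150 bases were aligned with STAR to Ensembl release 101 and counted with featureCounts, and the use of strand is not given in the sources used here. The authors deposited counts per gene, CPM per library, FPKM and TPM made from them, and other values, the exon length of each gene. Counts were used for every test, TPM for 1 alternative, and CPM and FPKM for checks of the counts.

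Genes were filtered with filterByExpr of edgeR 4.0.16 (minimum count 10, minimum total 15), scaled by TMM and tested with edgeR's quasi-likelihood test in R 4.3.3, with Benjamini-Hochberg adjustment over all genes tested and a threshold of 0.05. The genotypes were tested within each tissue in separate fits, and the depots (Ctrl mice) and the interaction in 1 fit of all groups. Printed CPM used TMM factors over all 18 libraries, and RPKM is that CPM per kilobase of deposited length. The code was tested on simulated data. Python 3.11.15 made the tables.

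Alternatives were DESeq2 (1.42.0 here, while the authors used another version of it), limma 3.58.1 voom with quality weights, other scalings and filters, ribosomal RNA genes left out, other groupings of libraries in a fit, and each library left out. All 10 receptors were named in every comparison, and from each pathway list up to 2 called genes per direction, ranked by adjusted p, apart from genes said to be chosen later. Members were taken by symbol, and members and lists were chosen with earlier results of these data known. *Ccl21a*, a symbol with 2 gene IDs, was left out. No pair of libraries was a duplicate.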

Additional observations from a re-analysis of the deposited data

Results flagged for a closer look

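In 3 of 44 sets of values, each of 1 gene in 1 group, 1 library lay far from the others of its group. Chance gives about 1 in 20, so this count is near that rate, and the sets share the same 18 libraries. *Tlr5* had 18.42 CPM in *Csn8* AKO sWAT library 2, the lowest of its group, with a gap to the next library of 0.830 of the range. *Tlr6* had 2.086 CPM in Ctrl BAT library 2, the highest of its group, with a gap of 0.874 of the range. *Tlr9* had 18.2 CPM in Ctrl sWAT library 1, the highest of its group, with a gap of 0.922 of the range.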

How the results depend on the processing

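Of 929 alternative values of the 40 receptor results, 880 kept direction and side of the threshold, 25 lost the call, 13 gained it and 11 changed sign. The changes of sign were of log2 fold changes near 0. *Tlr6* in sWAT was -0.128 without Ctrl library 3, -0.134 without Ctrl library 4 and -0.163 without *Csn8* AKO library 2 (highest 0.647, without Ctrl library 1), and *Tlr3* in sWAT was 0.010 without both libraries rich in B cell genes. The interaction of *Tlr1* was 0.052 with library size alone, 0.113, 0.190 and 0.029 without Ctrl sWAT library 2, 3 or 4, 0.468 without *Csn8* AKO sWAT library 2 and 0.128 without Ctrl BAT library 5 (lowest -1.008, without Ctrl sWAT library 1), and that of *Tlr9* was -0.180 without Ctrl sWAT library 1 (highest 0.854, without *Csn8* AKO sWAT library 2).

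In sWAT, 2 receptors and 434 genes were called higher and 566 genes lower. With library size alone these were 1, 106 and 328, with DESeq2 4, 912 and 1034, with voom 4, 1064 and 1065, and with all 4 groups in 1 fit 4, 1044 and 1419. Without both libraries rich in B cell genes they were 4, 993 and 827, and without both *Csn8* AKO libraries richest in ribosomal RNA 1, 130 and 252, both chosen after seeing the data. Leaving out 1 library gave 1 to 3, 147 to 804 and 179 to 673. In BAT the receptor called lower was lost with library size alone (0), and leaving out 1 library gave 0 to 1 lower and 7 to 8 higher. Between the depots leaving out 1 library gave 9 to 10 receptors lower. In the interaction 0 receptors were called, 0 to 1 with 1 library left out, and 362 genes were higher and 170 lower. These were 737 and 355 with DESeq2, 580 and 334 with voom, 494 and 39 with library size alone, 276 lower without both libraries rich in B cell genes, and 246 to 485 and 103 to 291 with 1 library left out. The cause was not tested.

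With library size alone the median log2 fold change of all genes was -0.04 in sWAT, 0.14 in BAT, -0.211 between the depots and 0.213 in the interaction. The calls were then 4183 higher and 2087 lower in BAT, against 3585 and 3536, and 2893 and 5694 between the depots, against 5823 and 5774. *Tlr5* in BAT was -0.532 then, and -0.672 relative to that median.

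Libraries share only a number between genotypes. Correlations of libraries of the same number were -0.129, -0.387, 0.223 and -0.113 in sWAT and 0.101, -0.0975, -0.0124, -0.0513 and 0.0910 in BAT, and not every library correlated best with its own number. With the number as a block, 1 receptor, 134 genes higher and 165 lower were called in sWAT, where *Tlr2* had an adjusted p of 0.0701, and 7 receptors higher and 1 lower in BAT.

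*Tlr1*, *Tlr6*, *Tlr8* and *Tlr13* in Ctrl BAT rest on few reads, as few as 12 for *Tlr1* and *Tlr6*, 19 for *Tlr8* and 28 for *Tlr13*, so that small differences would be missed. Bulk counts do not tell which cells carried a receptor, RNA does not give protein or signaling, and groups of 4 or 5 mice leave differences of moderate size undetected. A p above the threshold does not show that groups are alike.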
